A study of Mus musculus with 24 samples.

Results

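The replication-dependent histone genes lie in 4 clusters of the mouse genome, named Hist1, Hist2, Hist3 and Hist4. Their promoter peaks were taken from an ATAC-seq peak set as all peaks whose nearest gene name starts with Hist1h, Hist2h, Hist3h or Hist4 and which lie at most 1000 bp from the transcription start site (TSS) of that gene. The rule found 67 peaks of 54 genes, out of 150646 consensus peaks and out of 19933 promoter-proximal peaks (within 1000 bp of a TSS) of 14550 genes. Of the 67 peaks, 66 passed the filter on low counts and were tested. ATAC-seq uses the Tn5 transposase to cut open chromatin, so that the number of reads in a peak measures how accessible that region is. Aged small intestinal epithelium (libraries 1, 2 and 4) was compared with young small intestinal epithelium (libraries 1, 2 and 4), both from C57BL/6JRj mice with no further treatment or allele named. Cells taken straight from the intestine with EDTA and trypsin had been sorted for EpCam, an epithelial surface protein, and against CD45, a leukocyte one. The labels say only aged and young; the design text of the series gives 20 to 22 months and 2 to 3 months, in sentences about other assays. The labels do not say that each library came from its own mouse, so the spread behind the p-values is that between 3 libraries per age and may be technical.

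Histones package DNA into nucleosomes: H2A, H2B, H3 and H4 form the core, and H1, the linker histone, binds the DNA between cores. Replication-dependent histone genes are transcribed mainly in S phase, when new DNA has to be packaged, and their messages end in a stem-loop in place of a poly(A) tail. In the intestinal epithelium, dividing cells sit in the crypts, whereas the differentiated cells of the villi have left the cell cycle.

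The promoters of these genes were searched for short sequence elements known from histone and S phase promoters. RefSeq windows (GRCm38.p6, from 250 bases before to 50 bases after the start) were found for 47 of the 54 genes, in 48 windows. Motifs were searched as exact letters on both strands. The TATA box TATAAA was in 58.3% of the histone windows and in 13.6% of all 32851 RefSeq windows. The CCAAT box CCAAT was in 81.2% of the histone windows against 37.4% of all windows. It was in every window of an H1, H2A, H2B or H3 gene, and in 3 of 12 windows of H4 genes. The octamer ATTTGCAT, the element bound by Oct-1 in H2B promoters, was in 20.8% of the histone windows against 1.74% of all windows. It occurred in 6 of 14 H2B windows and 4 of 8 H2A windows and in none of the 5 H1, 9 H3 and 12 H4 windows. H2A and H2B genes that lie head to head share part of their windows, so these counts are not independent. The E2F sites TTTCCCGC and TTTGGCGC were in 1 of 48 histone windows and in 1.56% of all windows. No motif contains another, and a match describes letters only.

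A window is shown for each of the 5 histone types, from genes with a peak at an unadjusted p below 0.05, together with a second H2A copy. The Hist1h2bg window lies outside the small peak that gave that p. It lies under the peak assigned to Hist1h2ae (edgeR p = 0.0968). Capitals mark the TATA box (TTTATA when read from the other strand), the CCAAT box (there read as ATTGG) and the octamer. Hist1h1d lies on the plus strand at chr13:23554782-23555081, Hist2h2aa1 on the plus strand at chr3:96245247-96245546 and Hist2h2aa2 on the minus strand at chr3:96240325-96240624. Hist1h2bg lies on the plus strand at chr13:23571150-23571449, Hist1h3c on the minus strand at chr13:23745472-23745771 and Hist1h4d on the plus strand at chr13:23581318-23581617.
Hist1h1d: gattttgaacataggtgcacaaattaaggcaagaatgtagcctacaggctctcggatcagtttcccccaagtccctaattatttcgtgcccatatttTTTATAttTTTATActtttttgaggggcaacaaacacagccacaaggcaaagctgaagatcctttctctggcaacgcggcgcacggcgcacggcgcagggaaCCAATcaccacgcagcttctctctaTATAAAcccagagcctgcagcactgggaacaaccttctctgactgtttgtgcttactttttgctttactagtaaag
Hist2h2aa1: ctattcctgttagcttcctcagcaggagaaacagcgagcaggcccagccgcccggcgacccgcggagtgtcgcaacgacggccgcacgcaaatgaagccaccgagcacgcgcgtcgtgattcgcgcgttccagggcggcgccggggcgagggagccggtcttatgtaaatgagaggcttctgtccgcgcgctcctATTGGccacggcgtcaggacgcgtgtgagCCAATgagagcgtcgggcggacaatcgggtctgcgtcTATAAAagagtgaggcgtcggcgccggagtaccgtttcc
Hist2h2aa2: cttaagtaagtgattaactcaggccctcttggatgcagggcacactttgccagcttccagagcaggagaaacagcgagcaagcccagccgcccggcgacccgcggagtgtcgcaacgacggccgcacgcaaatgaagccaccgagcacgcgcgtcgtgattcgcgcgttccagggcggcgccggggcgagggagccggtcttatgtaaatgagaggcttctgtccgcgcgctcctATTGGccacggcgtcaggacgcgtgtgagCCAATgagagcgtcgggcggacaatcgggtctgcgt
Hist1h2bg: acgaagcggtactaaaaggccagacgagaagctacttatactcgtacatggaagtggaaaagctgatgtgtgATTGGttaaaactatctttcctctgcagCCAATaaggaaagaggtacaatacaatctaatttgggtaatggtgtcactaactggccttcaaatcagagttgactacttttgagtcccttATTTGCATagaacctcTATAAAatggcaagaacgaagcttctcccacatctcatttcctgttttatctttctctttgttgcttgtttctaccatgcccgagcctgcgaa
Hist1h3c: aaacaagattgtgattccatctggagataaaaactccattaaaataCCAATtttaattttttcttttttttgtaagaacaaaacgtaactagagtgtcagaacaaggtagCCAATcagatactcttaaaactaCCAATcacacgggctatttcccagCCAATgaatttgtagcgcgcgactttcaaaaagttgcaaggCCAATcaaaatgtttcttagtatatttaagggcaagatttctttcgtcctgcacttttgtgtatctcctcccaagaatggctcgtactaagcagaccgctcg
Hist1h4d: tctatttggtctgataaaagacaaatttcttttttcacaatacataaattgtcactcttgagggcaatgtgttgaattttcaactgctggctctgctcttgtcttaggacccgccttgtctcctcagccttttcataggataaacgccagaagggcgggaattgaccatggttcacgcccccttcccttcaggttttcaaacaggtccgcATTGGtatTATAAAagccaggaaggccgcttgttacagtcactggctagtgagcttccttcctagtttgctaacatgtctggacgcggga
The window of the H1 gene has 1 CCAAT box and 3 matches to the TATA box, the H3 window 5 CCAAT boxes and no TATA box, and the H2B window an octamer just before its TATA box. Hist2h2aa1 and Hist2h2aa2 share a run of 219 identical bases, and the windows of Hist1h4m and Hist1h4n share 285. Reads from such copies could be split between them or discarded, so the counts of these 4 genes are uncertain. Hist1h4j and Hist1h4k share a shorter run, of 72 bases. No other pair was searched for shared runs, so the counts of further genes may be uncertain too.

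Total counts per library ranged over 16900796 to 23935291 for aged and 6149680 (young 4) to 22819924 for young libraries. A histone peak had a median count of 224 to 325 in the aged libraries and of 102 to 395 in the young ones, with the lowest in young 4. Of 10 epithelial marker genes 8 had a promoter-proximal peak, with summed promoter CPM, scaled to the counts of all promoters, of 922 to 955 in aged and 945 to 981 in young libraries. Of 17 leukocyte markers only Coro1a, Cd2 and Cd79b had one, and Ptprc, which encodes CD45, did not. Of 10 markers of stroma and endothelium, 5 had one.

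The histone promoters ranged widely in accessibility. Levels between peaks are compared as normalised read counts (CPM, counts scaled to library size) per kb of peak, averaged over all 6 libraries. The histone peaks had a median of 29.6 CPM per kb (range 3.48 to 92.6), against 20.5 CPM per kb over all promoter-proximal peaks. Hist1h3g, an H3 gene, had the highest level at 92.6 CPM per kb, followed by the H2A gene Hist1h2ac at 71.1 and the H4 gene Hist2h4 at 64.4 in its peak 929 bp past the start. The lowest levels were those of the H3 gene Hist2h3c2 at 3.48 CPM per kb, the H2A gene Hist1h2al at 4.48, and the H4 gene Hist1h4m at 5.75 in the peak 601 bp past its start. Both peaks of the H2B gene Hist3h2ba were also low, at 7.18 and 9.77 CPM per kb. Whether a loss of reads with several matches lowered any of these levels was not tested. By histone type the median was 31.9 CPM per kb for H1, 37.7 for H2A, 29.5 for H2B, 26.9 for H3 and 26.0 for H4, differences smaller than the range within each type. Here and below, type follows the gene name a peak is assigned to. Some peaks of the H2B group also cover the start of an H2A gene, so these groups are not fully separate. Hist2h3c2 was the peak that did not pass the filter, with 0.493, 0.460 and 0.227 CPM in aged 1, 2 and 4 and 1.05, 0.594 and 0.159 CPM in young 1, 2 and 4, which overlapped.

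With age as the only term no histone promoter peak passed the test between ages, although most lay slightly lower in aged libraries. With edgeR's quasi-likelihood test and Benjamini-Hochberg adjustment over all 129588 tested peaks, 0 of 66 peaks were called at an adjusted p below 0.05, where 1.44% of promoter-proximal peaks and 1.6% of all peaks were called. DESeq2 and limma-voom, run only with age as the only term, also called 0. The smallest adjusted p was 0.221, for Hist1h3a. At an unadjusted p below 0.05, edgeR gave 8 peaks, limma-voom 8 and DESeq2 4, all lower in aged, against 3.44% of promoter-proximal peaks lower at that threshold by edgeR. That count rests on single libraries: it was 1 without aged 2, 1 without young 1, 4 without aged 4 and 14 without aged 1. With the replicate number, which was taken to pair the libraries, as a block, edgeR called 1 peak lower (Hist1h4d, adjusted p = 0.0392). With this block 18 peaks, all lower in aged, had an unadjusted p below 0.05. The shares given over all promoter-proximal peaks come from all 6 libraries without the block. Counts with the block or with a library left out have no such share beside them.

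The log2 fold change, aged over young, was below 0 in 60 of 66 histone peaks (90.9%), against 53.8% of all promoter-proximal peaks. Its median over the histone peaks was -0.16 (range -0.63 to 0.19), a change of -10.4%, against -0.01 over all promoter-proximal peaks, while a single histone peak had a median SE of 0.13. In 11 histone peaks all 3 aged libraries lay below all 3 young ones, an arrangement found in 5.78% of promoter-proximal peaks. In 0 histone peaks did all aged libraries lie above all young ones, as they did in 5.38% of promoter-proximal peaks. In histone peaks with a mean of 10 CPM or more the median was also -0.16, with 36 of 38 below 0, against -0.01 over all promoter-proximal peaks at that level.

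**Figure D1:**
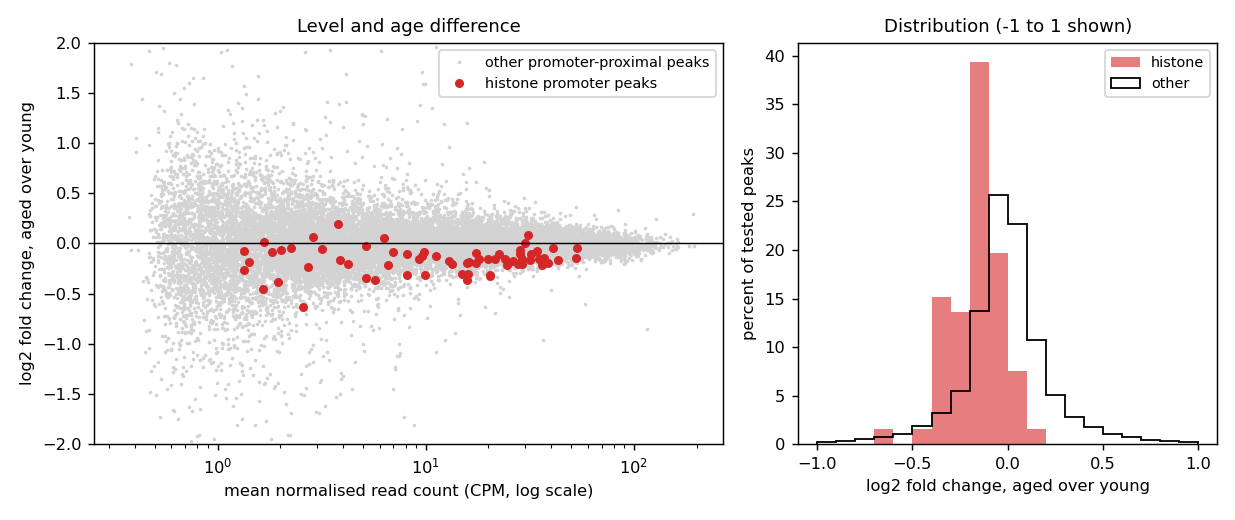
Left, log2 fold change (aged over young) against mean CPM on a log axis, with the 66 tested histone promoter peaks in red and other tested promoter-proximal peaks in grey. Right, the percent of histone (red) and other (black outline) peaks in bins of log2 fold change; the histone peaks centre at -0.16 and all promoter-proximal peaks at -0.01.

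The summed signal of the histone promoters was lower on average in aged libraries. All 67 peaks together had 1192, 1052 and 1011 CPM in aged 1, 2 and 4, and 1281, 1167 and 1143 CPM in young 1, 2 and 4. The groups overlapped, since aged 1 lay above young 2 and young 4, while in each of the 3 pairs of the same number the aged library was below the young one. The means were 1085 ± 95.0 CPM in aged and 1197 ± 73.8 CPM in young libraries (SD, n = 3 each), a log2 ratio of -0.14. This ratio was -0.08 without young 1, -0.09 without aged 4 and -0.22 without aged 1. As a share of promoter-proximal counts, which takes out differences in how much of a library falls in promoters, the histone peaks held 0.333, 0.316 and 0.314% in aged libraries 1, 2 and 4, and 0.345, 0.354 and 0.365% in young 1, 2 and 4. On this scale the ages did not overlap (0.321 ± 0.0105% in aged and 0.355 ± 0.0102% in young). The same held for the histone share of all counts. Its largest aged value was 0.114% (aged 1), just below its smallest young value, 0.117% (young 4). Unlike the CPM sums, both shares were taken from raw counts, without the TMM scaling of library sizes. Promoter-proximal peaks held 34.4, 33.3 and 32.5% of all counts in aged 1, 2 and 4, against 35.6, 33.2 and 32.0% in young 1, 2 and 4, so this total itself was highest in both libraries numbered 1. In a bulk sample fewer cells with an open promoter and less accessibility per cell cannot be told apart. The 3 leukocyte promoters summed to 43.3, 51.1 and 64.8 promoter CPM in aged 1, 2 and 4, and to 45.7, 48.2 and 56.8 promoter CPM in young 1, 2 and 4. Aged 4 was thus highest in these and lowest in histone signal; their part in the difference was not tested.

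**Figure D2:**
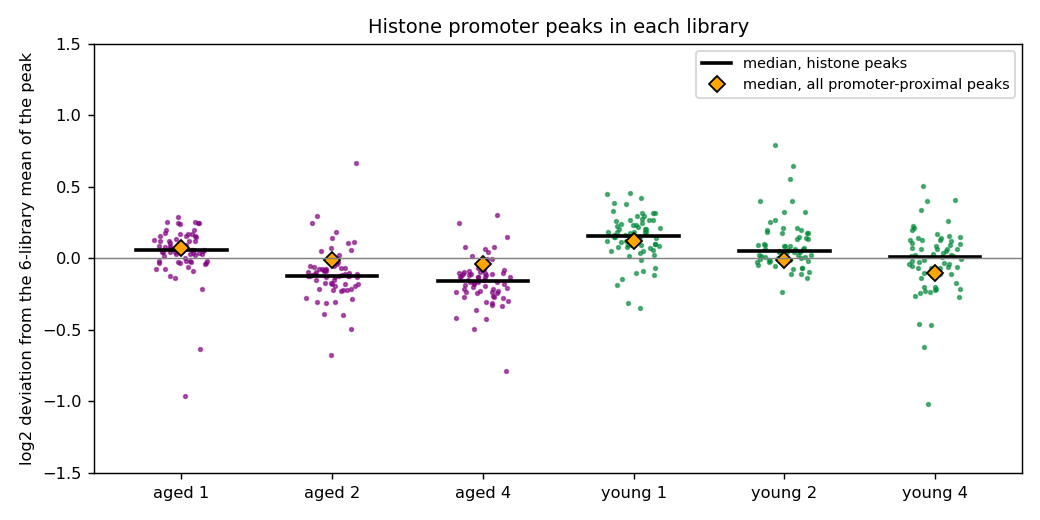
Each point is the log2 deviation of 1 histone promoter peak from its mean over the 6 libraries; black bars are the median of the histone peaks and diamonds the median of all promoter-proximal peaks. The histone median was 0.06, -0.12 and -0.16 in aged libraries 1, 2 and 4, and 0.16, 0.05 and 0.01 in young 1, 2 and 4; in aged 2 and 4 it lies under the diamond, in the 3 young libraries above it.

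Young 1 held the highest value of 34 of the 66 peaks, and aged 4 the lowest value of 29. Aged 2 was lowest in 18 and young 4 in 15.

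The linker histone genes had the lowest median of the 5 types, at -0.21 over 5 peaks, all below 0. Their summed CPM did not rank lowest, with a log2 ratio of -0.13. The ratio was -0.17 for H2A, -0.14 for H2B, -0.13 for H3 and -0.13 for H4. Hist1h1d encodes the linker histone H1.3, and its peak at chr13:23554923-23555511 had 15.3, 12.0 and 13.0 CPM in aged 1, 2 and 4, and 17.8, 15.6 and 15.9 CPM in young 1, 2 and 4. Every aged library was below every young one, at a log2 fold change of -0.31 ± 0.13 (SE) and an edgeR adjusted p of 0.438. Hist1h1b, which encodes H1.5, had 5.55, 4.60 and 5.17 CPM in aged and 7.00, 7.03 and 4.78 CPM in young libraries, which overlapped, with -0.36 ± 0.18 and an edgeR adjusted p of 0.565. Hist1h1c, which encodes H1.2 and had the widest histone peak (1527 bp), lay at 54.5, 50.6 and 53.2 CPM in aged and 61.7, 51.4 and 49.7 CPM in young libraries. Its log2 fold change was -0.05, and 0.06 without young 1.

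The peaks assigned to H2A genes had a median of -0.17 over 9 peaks, all below 0. The near-identical pair Hist2h2aa1 and Hist2h2aa2 both stood at -0.31 ± 0.14. Hist2h2aa1 (chr3:96245092-96245663) had 20.4, 17.9 and 16.6 CPM in aged 1, 2 and 4, and 27.6, 18.6 and 21.3 CPM in young 1, 2 and 4. Hist2h2aa2 (chr3:96240186-96240608) had 16.6, 13.6 and 12.7 CPM in aged and 20.5, 14.6 and 17.7 CPM in young libraries. In both peaks young 1 was highest and aged 1 overlapped the young range, though each aged library was below the young one of its number. The edgeR adjusted p was 0.454 and 0.501. Hist1h2ac, the strongest H2A peak, had 42.4, 40.9 and 38.3 CPM in aged and 44.1, 45.0 and 47.3 CPM in young libraries, without overlap, at -0.16 ± 0.11 (edgeR adjusted p = 0.794).

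The peaks assigned to H2B genes, some of which also cover an H2A start, had a median of -0.16 over 20 peaks, with 16 below 0. The lowest value of all histone peaks belonged to an 89-bp peak 386 bp past the start of Hist1h2bg (chr13:23571750-23571838), at 2.34, 1.55 and 2.10 CPM in aged 1, 2 and 4, and 2.61, 3.27 and 3.50 CPM in young 1, 2 and 4. The ages did not overlap, and the log2 fold change was -0.63 ± 0.24 with an edgeR adjusted p of 0.322. The start of Hist1h2bg itself lies in another peak, assigned to Hist1h2ae, which had 24.1, 22.8 and 22.7 CPM in aged and 26.5, 27.5 and 25.3 CPM in young libraries (-0.20 ± 0.11). Hist1h2be had a value above 0, with 35.6, 29.9 and 30.9 CPM in aged and 31.5, 31.5 and 26.9 CPM in young libraries, which overlapped (0.08 ± 0.12). Another RefSeq start of this gene lies in a peak assigned to Hist1h4d, beyond 1000 bp and thus outside the set (chr13:23585747-23586129). That peak had 13.7, 12.4 and 11.1 CPM in aged and 13.2, 15.8 and 17.7 CPM in young libraries, which overlapped (-0.30 ± 0.14, edgeR adjusted p = 0.498).

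In 7 peaks, all assigned to an H2A or H2B gene of Hist1, the RefSeq starts of 2 genes that lie head to head, 1 H2A and 1 H2B, were under the same peak. Hist2h2be and Hist1h2bc had no RefSeq start here and could not be counted. The peaks over the starts of Hist2h2ac and Hist1h2ac are also annotated to the promoters of these 2 genes, so 7 is a minimum. Of the 7, only the peak assigned to Hist1h2ae is in the H2A group above, and the others are in the H2B group. The 7 counted promoters had a median log2 fold change of -0.20, all 7 below 0, and in 3 of them the ages did not overlap. Together they had 206, 184 and 178 CPM in aged 1, 2 and 4, and 225, 207 and 212 CPM in young 1, 2 and 4, so that the highest aged library was just below the lowest young one.

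The H3 genes had a median of -0.15 over 14 tested peaks, with 13 below 0. Hist1h3a (chr13:23761934-23762521) had the smallest p of all histone peaks, with 14.4, 14.5 and 12.7 CPM in aged 1, 2 and 4, and 19.2, 17.2 and 16.7 CPM in young 1, 2 and 4. The highest aged library was below the lowest young one, and the log2 fold change was -0.36 ± 0.13, with an edgeR p of 0.00729 and an adjusted p of 0.221. A second, 86-bp peak at -354 bp, before its start, had 1.11, 2.05 and 0.965 CPM in aged and 1.46, 2.23 and 0.637 CPM in young libraries, which overlapped (-0.19 ± 0.33). Hist1h3c had 10.6, 7.44 and 8.35 CPM in aged and 10.5, 11.0 and 11.3 CPM in young libraries, with aged 1 inside the young range (-0.32 ± 0.15). Hist1h3g, the most accessible histone promoter per kb, stood at 45.9, 39.7 and 35.7 CPM in aged and 46.4, 38.9 and 38.9 CPM in young libraries. That is a log2 fold change of -0.04 ± 0.12, which was 0.06 without young 1 and 0.04 without aged 4. The highest log2 fold change, 0.19 ± 0.20, was that of a 156-bp peak 935 bp past the start of Hist1h3i.

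The H4 genes had a median of -0.13 over 18 peaks, with 17 below 0. Hist1h4d (chr13:23581379-23581900) had 19.0, 16.7 and 19.0 CPM in aged 1, 2 and 4, and 25.2, 22.9 and 19.4 CPM in young 1, 2 and 4. The aged libraries lay below the young ones, with young 4 only just above, at a log2 fold change of -0.33 ± 0.12 and an edgeR adjusted p of 0.300. With the replicate number as a block it was the 1 histone peak called, at -0.33. Hist1h4h, a strong H4 peak with 54.1, 48.1 and 47.6 CPM in aged and 61.5, 52.4 and 50.8 CPM in young libraries, overlapped between ages at -0.14 ± 0.11. Within pairs of the same number, the aged library of Hist1h4h was always below the young one. Hist1h4a stood at 0.00 ± 0.12.

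**Figure D3:**
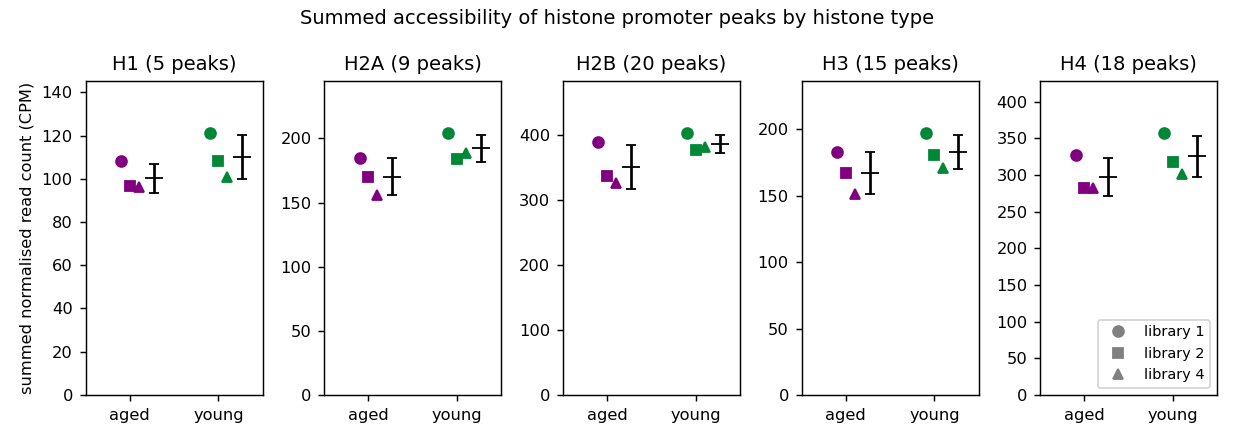
Summed CPM of the histone promoter peaks of each type, in aged (purple) and young (green) libraries; symbols mark library 1, 2 and 4, and the bar beside them is the mean ± SD (n = 3). H4 peaks, for example, sum to 328, 282 and 283 CPM in aged 1, 2 and 4 and to 357, 318 and 302 CPM in young 1, 2 and 4, and the aged mean is below the young mean in all 5 types. Type follows the assigned gene name, so H2B includes peaks that also cover an H2A start.

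By cluster, the 53 peaks of Hist1 and the 8 tested peaks of Hist2 both had a median log2 fold change of -0.16, with 48 and 8 below 0. Hist1 falls into a block at chr13:21715672-22043484 (14 genes, 20 peaks, median -0.16), a block at chr13:23530902-23763901 (27 genes, 32 peaks, median -0.16) and Hist1h2al alone at chr13:51202722-51203088. The first block summed to 286, 255 and 246 CPM in aged 1, 2 and 4, and 308, 282 and 296 CPM in young 1, 2 and 4. The second summed to 626, 553 and 546 CPM in aged and 678, 622 and 586 CPM in young libraries. In both blocks aged 1 reached into the young range, while in each pair of the same number the aged library was below the young one. Hist1h2al had 0.801, 1.38 and 1.93 CPM in aged and 2.15, 1.54 and 2.07 CPM in young libraries, which overlapped (-0.45 ± 0.30, edgeR adjusted p = 0.786). In each pair of the same number its aged library was also the lower one.

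Hist2, at chr3:96219655-96270125, summed to 191, 167 and 148 CPM in aged 1, 2 and 4, and to 208, 179.9 and 183 CPM in young 1, 2 and 4, with aged 1 above young 2 and young 4. Its strongest H2B peak, Hist2h2bb, had 37.6, 34.1 and 28.7 CPM in aged and 39.0, 36.6 and 41.4 CPM in young libraries (-0.21 ± 0.12). Its H3 gene Hist2h3b had 9.24, 10.5 and 6.87 CPM in aged and 10.7, 9.81 and 8.92 CPM in young libraries (-0.16 ± 0.16). The ages overlapped in both. Within pairs of the same number, the aged library was always the lower one for the Hist2 sum and for Hist2h2bb. For Hist2h3b aged 2 was above young 2.

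Hist3, at chr11:58947964-58955322, had a median of -0.05 over 4 peaks of 3 genes, 1 of which, Hist3h2bb-ps, is annotated as a processed pseudogene. Hist3h2a, its H2A gene, had 36.5, 34.9 and 29.0 CPM in aged and 36.6, 34.0 and 35.2 CPM in young libraries (-0.07 ± 0.12, and 0.03 with libraries thinned to the shallowest). Hist3h2ba had 7.46, 5.98 and 5.74 CPM in aged and 4.90, 7.23 and 6.53 CPM in young libraries at its start (0.05 ± 0.18), and the pseudogene 6.04, 4.72 and 4.77 CPM in aged and 6.13, 4.85 and 4.30 CPM in young libraries (-0.03 ± 0.18). The weaker Hist3h2ba peak at -864 bp had 1.29, 1.13 and 1.31 CPM in aged and 1.24, 1.93 and 1.11 CPM in young libraries (-0.27 ± 0.30). All Hist3 peaks overlapped between ages. Hist4h4, the only Hist4 peak (chr6:136803700-136804539), had 36.0, 29.2 and 27.7 CPM in aged and 36.1, 33.3 and 29.5 CPM in young libraries, which overlapped (-0.11 ± 0.12). Within pairs of the same number, the aged library of Hist4h4 was always below the young one. No difference between clusters or types was tested.

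**Figure D4:**
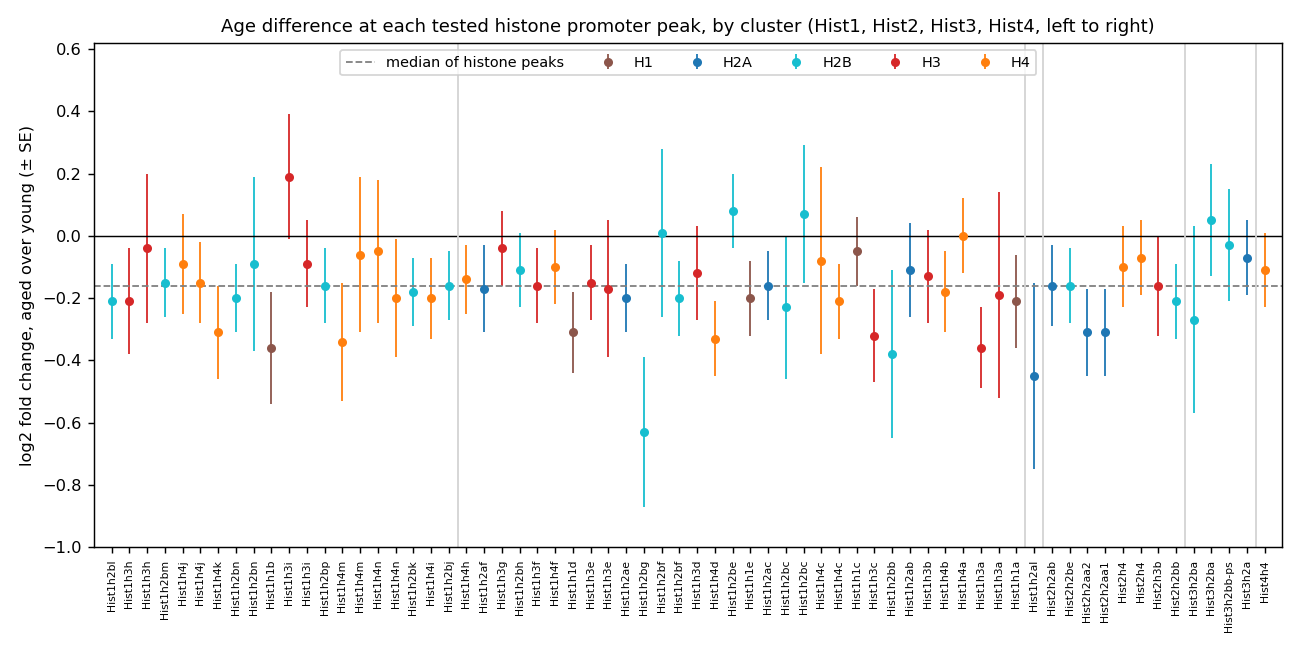
Log2 fold change (aged over young) ± SE of each of the 66 tested histone promoter peaks, ordered along the genome within Hist1, Hist2, Hist3 and Hist4 and coloured by histone type; grey lines part the Hist1 blocks and the clusters. Values lie between -0.63 and 0.19, and 60 are below 0.

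Summed per gene and with age as the only term, 0 of 53 tested histone promoters were called by edgeR, limma-voom or DESeq2. EdgeR called 1.74% of all gene promoters. At an unadjusted p below 0.05 there were 12 by edgeR, 12 by limma-voom and 7 by DESeq2, against 4.32% of gene promoters lower at that threshold by edgeR; the edgeR count was 5 without aged 2 and 5 without young 2. The median log2 fold change was -0.14, with 49 (92.5%) below 0, against -0.00 and 50.6% over all gene promoters. Hist1h4d had the smallest adjusted p, 0.137 by edgeR, and 0.0273 with the replicate block, where it was the 1 gene called. The share of all gene promoters called with the block is not given here.

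Genes that supply or replace these histones had medians closer to 0. Of 19 genes listed as replication-independent variants, whose deposition is mostly not tied to S phase, 9 were tested at their promoters. Of these 8 were below 0, and the median log2 fold change was -0.05. H3f3b, which encodes H3.3, had promoter values of 201, 192 and 182 CPM in aged 1, 2 and 4, and 206, 196 and 233 CPM in young 1, 2 and 4, with aged 1 above young 2 (-0.12 ± 0.07, edgeR adjusted p = 0.643). H2afy, which encodes macroH2A1, stood at -0.18 ± 0.12 and the linker variant H1fx at -0.43 ± 0.41 (edgeR adjusted p = 0.747 and 0.878). Of 27 genes of histone transcription and message 3′ processing, 14 were tested, 9 were below 0 and the median was -0.02. The 3 with the smallest p were E2f4, a transcription factor of the E2F family, at -0.18 ± 0.10, Hinfp, the activator of H4 transcription, at -0.10 ± 0.06, and Lsm10, a component of the U7 particle that cuts histone messages, at 0.07 ± 0.07 (edgeR adjusted p = 0.676, 0.738 and 0.889). Of 24 histone chaperone genes 12 were tested, 9 were below 0 and the median was -0.03. The 3 with the smallest p were Ubn1, a subunit of the HIRA complex, at -0.10 ± 0.07, Chaf1a, the large subunit of the replication-coupled assembly factor CAF-1, at -0.11 ± 0.08, and the H3-H4 chaperone Asf1a at -0.07 ± 0.07 (edgeR adjusted p = 0.799, 0.810 and 0.893). Of 24 S phase genes 14 were tested, 10 were below 0 and the median was -0.04. The smallest p-values in this list belonged to genes with values above 0, Gins1, a subunit of the GINS complex of the replicative helicase, at 0.16 ± 0.08 and Rfc1, the large subunit of the clamp loader, at 0.15 ± 0.09 (edgeR adjusted p = 0.636 and 0.728). Mcm7, another helicase subunit, followed at -0.10 ± 0.07 (edgeR adjusted p = 0.750). In each of the 4 lists edgeR called 0, and 0 had an unadjusted p below 0.05, where 8.92% of all gene promoters did; these lists were not run with other tools.

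The 54 genes do not hold all histone starts. Of 70 RefSeq genes with an older Hist symbol, 62 had a start in the sequence table, in 63 starts, and 53 starts lay inside one of the 67 peaks. A further 8 lay in no consensus peak: those of Hist2h3c1, Hist1h2bq, Hist1h2ao, Hist1h2ap, Hist1h2br and the testis-type genes Hist1h1t, Hist1h2aa and Hist1h2ba. Whether reads with several matches were lost at these starts was not tested, so a missing peak need not mean a closed promoter. The other 2 starts lay in peaks assigned to another gene name or to a distance beyond 1000 bp. Just inside that distance lay Hist1h2bf at 992 bp (0.01), Hist1h3h at 980 bp (-0.04) and Hist1h3e at -953 bp (-0.17), by log2 fold change. Just outside lay Hist2h3c2 at 1018 bp (0.57), Hist1h1d at 1024 bp (-0.14) and Hist1h1b at 1163 bp (-0.06).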

How the data were processed

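ATAC-seq counts of 6 libraries, aged 1, 2 and 4 and young 1, 2 and 4, were used; the 24 sample records are the 4 lanes of each library, which share 1 column of counts. The authors deposited raw counts per consensus peak, without normalisation, and a table of each peak's nearest gene and distance to its TSS. The submitters' processing notes name Trim Galore 0.6.4, BWA 0.7.17-r1188, SAMtools 1.10, Picard 2.23.1, MACS2 2.2.7.1, featureCounts 2.0.1 and the build GRCm38. The treatment of reads with several matches, like that of the Tn5 offset, is not stated in the labels or headers.

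Low counts were removed by filterByExpr over all peaks, library sizes were scaled by TMM (trimmed mean of M-values), and ages were compared with edgeR 4.0.16's quasi-likelihood test (limma 3.58.1, R 4.3.3), with age as the only term and Benjamini-Hochberg adjustment over all tested peaks at 0.05. CPM are TMM-scaled. Gene values sum counts over peaks within 1000 bp of the TSS, scaled to the total over promoters. SE are those implied by the test. P-values and SE are from fits without the replicate block unless the block is named. Overlap between ages is likewise judged without the pairing, with every aged library set against every young one. The edgeR and limma-voom steps were tested on simulated data. Alternatives included other scalings and filters, DESeq2 1.42.0, limma-voom, other distances, thinning, leaving out each library, and the replicate number as a block. Aged and young libraries of 1 number deviated together from their age means (correlations 0.236, 0.182 and 0.123 for numbers 1, 2 and 4), all above the criterion of 0.1, so the numbers were taken to pair the libraries; what a number marks is not in the labels. Counting error is larger in young 4, the shallowest library.

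Members and lists were chosen with earlier results of these data known. Peaks are named by rule: the strongest of each type per cluster and the weakest 5 by CPM per kb, the 5 smallest p in each direction, all of Hist3 and Hist4, and those nearest the 1000 bp limit; in the other lists, up to 3 genes with the smallest p. Of the strongest peaks, 4 are given only here, by log2 fold change. They are Hist1h2bj at -83 bp (-0.16), Hist1h4i at 172 bp (-0.20), Hist1h3h at -39 bp (-0.21) and Hist1h2bh at -7 bp (-0.11). Hist1h3c, Hist1h4a, Hist1h2ae, the second Hist1h3a peak, the peak at the other Hist1h2be start and the sequences shown were chosen after their values were seen.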

Additional observations from a re-analysis of the deposited data

How the results depend on the processing

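No histone promoter peak or gene promoter was called under any of the 19 alternatives except the replicate block (the pairing by number), which called 1 peak and 1 gene lower in aged, Hist1h4d in both, and gave a median log2 fold change of -0.14. Without the block both counts were 0. The median was -0.23 to -0.11 and the log2 ratio of the sums -0.22 to -0.08 when each library was left out, and no alternative moved either by more than the spread between libraries (0.10 and 0.11). That spread is itself large beside the main values of -0.16 and -0.14, so the criterion is loose and a value within it may still have changed much. For the named peaks, 550 values under alternatives kept their direction and side of the threshold, 1 passed it (Hist1h4d with the block, -0.33, adjusted p = 0.0392) and 27 changed sign. The 550 include the other distances and the other threshold, which reuse the same fit of single peaks and could not change a value. With limma-voom the Hist1h2bf peak at 992 bp was -0.01, and with the block it was -0.03 and Hist3h2bb-ps 0.01. With libraries thinned to the shallowest, Hist3h2a was 0.03, Hist1h3h at 980 bp 0.16, Hist1h4m at 601 bp 0.08 and Hist1h2bc at 652 bp -0.07. With each library left out the values ran from -0.13 to 0.22 for the Hist3h2ba peak at -12 bp, -0.04 to 0.27 for the Hist1h2bc peak at 652 bp, -0.15 to 0.15 for the Hist3h2bb-ps peak at 390 bp, -0.13 to 0.10 for the Hist1h4m peak at 601 bp, -0.14 to 0.02 for the Hist3h2a peak at 188 bp, -0.14 to 0.06 for the Hist1h3g peak at -38 bp, -0.11 to 0.11 for the Hist1h2bf peak at 992 bp, -0.18 to 0.08 for the Hist1h3h peak at 980 bp, -0.10 to 0.06 for the Hist1h1c peak at 666 bp, -0.43 to 0.04 for the Hist3h2ba peak at -864 bp and -0.33 to 0.24 for the Hist1h3e peak at -953 bp. The cause of these sign changes was not tested. Sums have no value under limma-voom or the block. Depth limits the weakest peaks, whose counts in young 4 were as low as 1.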

Other observations

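Beyond 1000 bp of a histone start, 46 further peaks carried a histone gene name, of which 44 were tested, with a median log2 fold change of -0.09. EdgeR called 1 (1.6% of all peaks were called), an intergenic peak 3237 bp from the start of the testis-type H2B gene Hist1h2ba (chr13:23930561-23931277). It had 29.0, 22.6 and 20.6 CPM in aged 1, 2 and 4, and 18.4, 16.3 and 15.0 CPM in young 1, 2 and 4, with every aged library above every young one (log2 fold change 0.52 ± 0.13, edgeR adjusted p = 0.0322). An intergenic peak 9051 bp from the start of Hist1h1a (chr13:23772678-23772858) had 1.60, 0.460 and 0.681 CPM in aged and 2.11, 2.53 and 1.27 CPM in young libraries, which overlapped (-1.27 ± 0.35, edgeR adjusted p = 0.0645). Both were chosen after their values were seen.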
